A study of Mus musculus with 3 samples.

Results

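Dividing monocyte-lineage cells are the bone marrow cells that carry RNA of the monocyte line and of cell division at the same time. A cell counted as one if its UMIs (unique molecular identifiers, each a single captured RNA molecule) included at least 3 of 7 monocyte genes and at least 5 UMIs of 6 cell-cycle genes. The monocyte genes were Csf1r, Ccr2, F13a1, Ms4a6c, Fn1, Klf4 and Cx3cr1, and the cell-cycle genes were Top2a, Mki67, Ube2c, Birc5, Cdk1 and Nusap1. Cells were left out where the neutrophil secondary-granule genes Ltf, Ngp, Camp and Lcn2 took 2% or more of the UMIs, or where MHC class II genes (H2-Aa, H2-Ab1, H2-Eb1, Cd74) reached 20 of 10000 UMIs. Cells with both Vcan and Pla2g7, and cells with any Cd34, were left out as well. The rule found 1153 cells, 6.45% of the 17879 kept cells and taken from 28265 barcodes. The members were thus chosen by measured UMIs of these genes, and no value of these genes is tested. Kept cells had at least 500 UMIs, at least 200 genes and under 10% of UMIs from mitochondrial genes.

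The cells come from 3 libraries of mouse bone marrow made with the 10x Genomics Chromium 3' kit, 1 each from mice with intact Fabp4, with 1 allele knocked out and with both knocked out. Fabp4 encodes a cytosolic carrier of fatty acids, and the series concerns its role in leukaemia stem cells and in normal blood stem cells. The labels give no strain, age, sex, treatment or deleted exon for any genotype, and they do not say whether the marrow carried leukaemia. Genotypes were taken from the genotype labels, since the sample titles carry the letters W, H and K, with H on the library labelled homozygous and K on the one labelled heterozygous. If these 2 labels were exchanged, every heterozygous and homozygous value below would be exchanged too. The design text can be read as pooling the marrow of 2 mice in each library, so genotype, mouse and library cannot be told apart, no p-value is given, and every interval below is a 95% interval of counting error only. These genotypes are called wild type, heterozygous and homozygous below, values follow that order throughout, and the 2 knockout comparisons share the wild-type library.

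Monocytes arise in the marrow from granulocyte-monocyte progenitors through dividing intermediates. The transcription factor Irf8 favours the monocyte branch, while Cebpe and Gfi1 favour the neutrophil branch. Primary granule proteins such as elastase and myeloperoxidase are made in the late progenitors that precede both branches, and their RNA is lost as cells mature. Division itself needs genes of DNA synthesis (S phase) followed by genes of chromosome segregation (mitosis), and most mature monocytes have left the cycle. Type I interferon acts on all these cells through the receptor chains Ifnar1 and Ifnar2 and factors such as Stat2 and Irf9, which switch on antiviral genes.

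The rule took 353 of 5604 kept wild-type cells, 225 of 7957 heterozygous cells and 575 of 4318 homozygous cells. At the edge of the cycle threshold, 20, 25 and 30 cells had exactly 5 cycle UMIs, and 52, 33 and 63 cells that met every other condition had 4. At the edge of the monocyte threshold, 109, 63 and 109 cells had exactly 3 of the 7 genes, and 141, 106 and 128 had 2. Cd34 was the exclusion that removed most cells, 201, 101 and 89 of them. The granule condition removed 18, 70 and 20 cells. A median member held 20361, 16563 and 18473 UMIs, against 10058, 7658 and 9036.5 in a median kept cell. The members' summed UMIs were 7814570, 4150575 and 11481135, so the heterozygous values rest on the fewest molecules. The floor of 3 counts corresponds to 0.384, 0.723 and 0.261 CPM, where CPM scales the summed cells of a library to 1000000 UMIs.

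Fabp4 itself was close to the floor in these cells, with 4, 1 and 2 UMIs, so the members alone check no label. Over all barcodes of each library Fabp4 had 73, 43 and 7 UMIs, or 0.946, 0.548 and 0.129 CPM, which is the order of the genotype labels. The deleted exons are not given, so a UMI from the 3' end may also come from a knocked-out allele. Scrublet's own threshold marked almost no cell as a doublet (0.0357%, 0.0251% and 0% of kept cells), and its top-scoring cells were used in its place. Among members 17.8%, 21.8% and 17% were marked this way, against 7.55%, 8.57% and 6.48% of kept cells. Members had more UMIs than other cells, and how much of this excess is real doublets was not tested. The libraries shared 26, 21 and 23 barcodes pair by pair, and 2, 1 and 3 members carried such a barcode. RNA of Xist and not of Y-linked genes was found in 97.5% of wild-type and 92.9% of homozygous members, whereas 23.1% of heterozygous members had Xist alone, 48.4% Y-linked RNA alone and 24% both. The heterozygous library therefore holds cells of both sexes and the other libraries almost none with Y-linked RNA alone (0.283% and 0.522% of members).

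F13a1, Ms4a6c and Csf1r, but not Ccr2, stood well above their level in unrelated cells. F13a1, a coagulation factor XIII subunit typical of classical monocytes, was detected in 85.0%, 89.3% and 93.9% of members. In T-lineage cells of the same libraries (at least 2 T-cell genes), which should lack it, it was detected in 17.4%, 5.88% and 28.6%, and its level was 91.1, 27.4 and 28.3 CPM against 446, 737 and 677 CPM in members. Those T-lineage cells were few, 23, 17 and 28, with median depths of 5996, 7924 and 8929.5 UMIs, so they were shallower than members. Ms4a6c, a membrane protein of monocytes, was detected in 90.1%, 85.3% and 91.5% of members and in 30.4%, 11.8% and 14.3% of T-lineage cells. Ccr2, the chemokine receptor with which classical monocytes leave the marrow, was detected in 54.7%, 49.8% and 63.1% of members. T-lineage cells, some of which express Ccr2 themselves, showed it in 30.4%, 29.4% and 53.6%, at 80.4, 75.4 and 113 CPM against 94.6, 81.2 and 139.5 CPM in members, so Ccr2 alone does not set members apart from them. Csf1r, the receptor for macrophage colony-stimulating factor, separated the sets more clearly, with 59.8%, 59.6% and 72.7% of members against 4.35%, 0% and 3.57% of T-lineage cells. The 0 rests on 17 cells, and its exact upper limit is 19.5%. Ube2c and Birc5, a ubiquitin-conjugating enzyme of mitotic exit and the survival protein survivin, were detected in 75.9%, 69.8% and 68.7% and in 74.8%, 70.2% and 76.3% of members. The rule reads all of these genes, so their presence describes the choice of cells and is no finding.

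The summed levels of the genes that the rule reads show the same in more detail, again as a description. Csf1r stood at 65.6, 69.1 and 103 CPM in members, 138, 168 and 179 CPM in non-dividing monocyte-lineage cells and 2.53, 3.66 and 3.49 CPM in dividing cells with at most 1 monocyte gene. Klf4, a factor of monocyte maturation, stood at 181, 264 and 318 CPM in members and 356, 613 and 569.9 CPM in the non-dividing cells. Cx3cr1, the fractalkine receptor of more mature monocytes, stood at 35.7, 56.4 and 59.7 CPM against 66, 137 and 109 CPM. Each of these was lower in members than in their non-dividing counterparts in every library. Fn1, fibronectin, was the only one of the 7 monocyte genes that was lower in homozygous than in wild-type members, at 159, 159 and 92.7 CPM. Ms4a6c stood at 362, 352 and 630.1 CPM. Top2a, the topoisomerase that untangles chromosomes, stood at 383, 381 and 582 CPM, and Mki67, the Ki-67 antigen, at 319, 369 and 491 CPM. Cdk1, the mitotic kinase, stood at 163, 147 and 199 CPM, and Nusap1, a spindle protein, at 156, 155 and 260.2 CPM. Of the 6 cycle genes Ube2c differed least between homozygous and wild-type members, at 398, 375 and 401 CPM, and Birc5 stood at 219, 172 and 302 CPM.

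Genes used to leave cells out were still present below the thresholds. Camp, the cathelicidin gene of secondary granules, stood at 1002, 2750.5 and 899.6 CPM, Ngp at 559, 1257 and 169.8 CPM, Lcn2 at 327, 656 and 102 CPM and Ltf at 19.1, 57.3 and 9.23 CPM, each highest in heterozygous members. Cd74, the MHC class II invariant chain, stood at 14.8, 55.7 and 25.4 CPM, and H2-Aa at 2.56, 15.2 and 4.88 CPM, again highest there. H2-Ab1 stood at 1.92, 14.7 and 2.53 CPM and H2-Eb1 at 1.66, 13.7 and 2.09 CPM. Vcan, versican, had 87, 1 and 16 UMIs, and Pla2g7 had 11, 1 and 4 UMIs. Cd34 was at 0 in all members by the rule.

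Members differed widely in granule RNA, and the granule-rich ones carried less Irf8 and Lyz2 than the granule-poor ones. Members were split by the share of their UMIs from the primary granule genes Elane, Mpo, Prtn3 and Ctsg, a measure the rule does not read. At 1% or more lay 64, 20 and 58 cells, which is 18.1%, 8.89% and 10.1% of members. Below 0.1% lay 74, 78 and 271 cells, which is 21.0%, 34.7% and 47.1%. In the granule-rich cells Elane, the neutrophil elastase gene, reached 9079, 6897 and 8914 CPM, while Irf8 stood at 27.3, 132 and 160.1 CPM and Lyz2 at 263, 456 and 579 CPM. In the granule-poor cells Irf8 stood at 251, 282 and 414 CPM and Lyz2, the lysozyme gene of monocytes and macrophages, at 3176, 3516 and 3925 CPM. Between these ends Lyz2 stood at 1369, 1479 and 1307 CPM in cells with 0.1% to 0.5% and at 552, 609 and 516 CPM in those with 0.5% to 1%. Irf8 stood at 254, 278 and 487 CPM and at 200, 95.3 and 246 CPM in the same ranges. The lowest heterozygous Irf8 and the lowest homozygous Lyz2 were thus found at 0.5% to 1%. The 7 monocyte genes of the rule summed to 255, 617 and 574 CPM in the granule-rich cells, against 2539.9, 3099.5 and 2942 CPM in the granule-poor ones, which is a description, since the rule chose the members by these genes. Myb, a transcription factor of immature cells, ran the other way, with 264, 312 and 311 CPM against 97.6, 103 and 72.8 CPM. The granule-rich cells met the rule with a median of 3, 4 and 4 monocyte genes, and the granule-poor cells with 5, 6 and 6. Elane at low level is no sign of a granule-rich cell here, since T-lineage cells also carried 123, 103 and 192 CPM of it. They carried 129, 61.7 and 120 CPM of Irf8. In wild-type T-lineage cells Csf1r, Ccr2, F13a1, Ms4a6c, Fn1, Klf4 and Cx3cr1 stood at 5.36, 80.4, 91.1, 85.7, 10.7, 69.7 and 10.7 CPM. For Irf8 and for these genes together, this is more than in granule-rich wild-type members. The knockout libraries went the other way. Whether the granule-rich members belong to the monocyte line was not tested.

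Markers of other marrow cells were low in members, with some exceptions. The 7 neutrophil markers measured summed to 177, 525 and 87.4 CPM, and none of them was at 0. They were highest in the heterozygous library in members, in non-dividing monocyte-lineage cells (126, 448 and 221 CPM) and in dividing cells with at most 1 monocyte gene (303, 913 and 231 CPM). B-cell markers summed to 27.3, 338 and 24.6 CPM, with Vpreb3 at 0 in all 3 libraries. The heterozygous sum was Jchain, of which 99.6% came from 1 cell. T- and natural-killer-cell markers summed to 1.41, 19.8 and 8.80 CPM, with 5, 2 and 0 of 8 genes at 0, and erythroid markers to 2.18, 0.964 and 3.05 CPM, with 5, 6 and 4 of 8 at 0. Eosinophil, basophil and mast-cell, megakaryocyte and dendritic-cell lists each summed to between 6.27 and 34 CPM in every library. The macrophage list summed to 91.6, 96.6 and 69.6 CPM, mostly Adgre1 (the F4/80 antigen), with C1qa and Cd5l at 0. Markers of Ly6c-low monocytes summed to 181, 228 and 208 CPM, and stromal markers to 144, 165 and 151 CPM. Stem-cell markers were the highest of these lists, at 1579, 1288 and 1066 CPM. They stood at 1514, 1223 and 1146 CPM in non-dividing monocyte-lineage cells. The part of these cells in the results below was not tested, except where a value is given beside a result.

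The share of dividing monocyte-lineage cells differed strongly between libraries. They made up 6.30% (5.68 to 6.97) of wild-type kept cells, 2.83% (2.47 to 3.22) of heterozygous and 13.3% (12.3 to 14.4) of homozygous kept cells, with exact Clopper-Pearson intervals. The homozygous share was the highest and the heterozygous share the lowest, and the intervals did not overlap. Of all monocyte-lineage cells, dividing or not, members were 19.5% (17.7 to 21.4), 16.5% (14.6 to 18.6) and 31.5% (29.4 to 33.7). With this denominator the wild-type and heterozygous intervals overlapped, while the homozygous one stood above both. Of all dividing cells, members were 27.1% (24.7 to 29.6), 15.1% (13.4 to 17.1) and 39.2% (36.7 to 41.8). Dividing cells of any kind were 23.2%, 18.7% and 34.0% of kept cells, and monocyte-lineage cells 32.3%, 17.1% and 42.2%. The rule needs a fixed number of UMIs, so cells were also thinned to 3000 UMIs each, which left out 359, 818 and 873 kept cells below that depth. Members were then 2.08%, 1.02% and 6.65% of kept cells, in the same order and with a wider relative gap between the homozygous and wild-type libraries. Of all barcodes 59.4%, 74.2% and 53.2% were kept, so the denominators also differ in how many barcodes failed the cell filters.

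**Figure D1:**
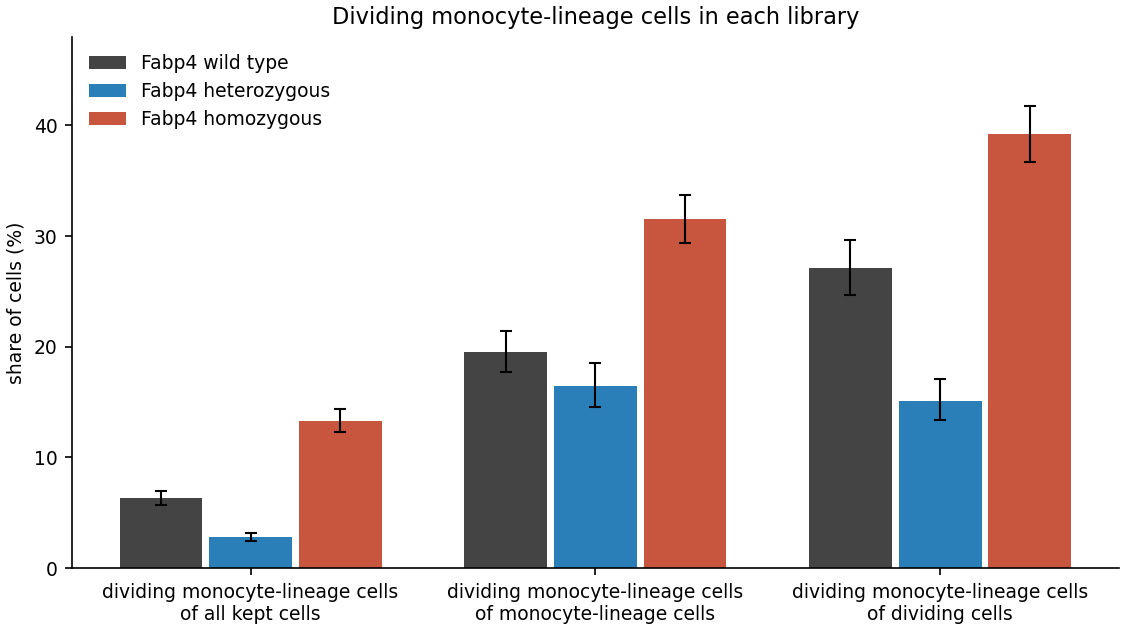
Share of dividing monocyte-lineage cells in percent (vertical axis) of kept cells, of monocyte-lineage cells and of dividing cells in the 3 libraries; bars start at 0 and lines are 95% Clopper-Pearson intervals. The homozygous library has the highest share with every denominator (13.3%, 31.5% and 39.2%), and the heterozygous library the lowest (2.83%, 16.5% and 15.1%).

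Most members carried more mitotic than S phase RNA. A median member had 31.4, 29.3 and 41.4 UMIs of the 58 S phase genes in each 10000 UMIs, and 104, 99.1 and 143 UMIs of the 92 mitotic genes. The homozygous median was highest for both. Cells with more S phase than mitotic RNA numbered 54, 35 and 82, which is 15.3% (11.7 to 19.5), 15.6% (11.1 to 21.0) and 14.3% (11.5 to 17.4) of members. The intervals of these shares overlapped across all 3 libraries, while the medians of both phases were highest in homozygous members. Members with 60 or more UMIs of the 6 cycle genes numbered 67, 27 and 179. The 6 genes of the rule are themselves mostly mitotic, so cells early in S phase with few such UMIs are under-represented by design.

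**Figure D2:**
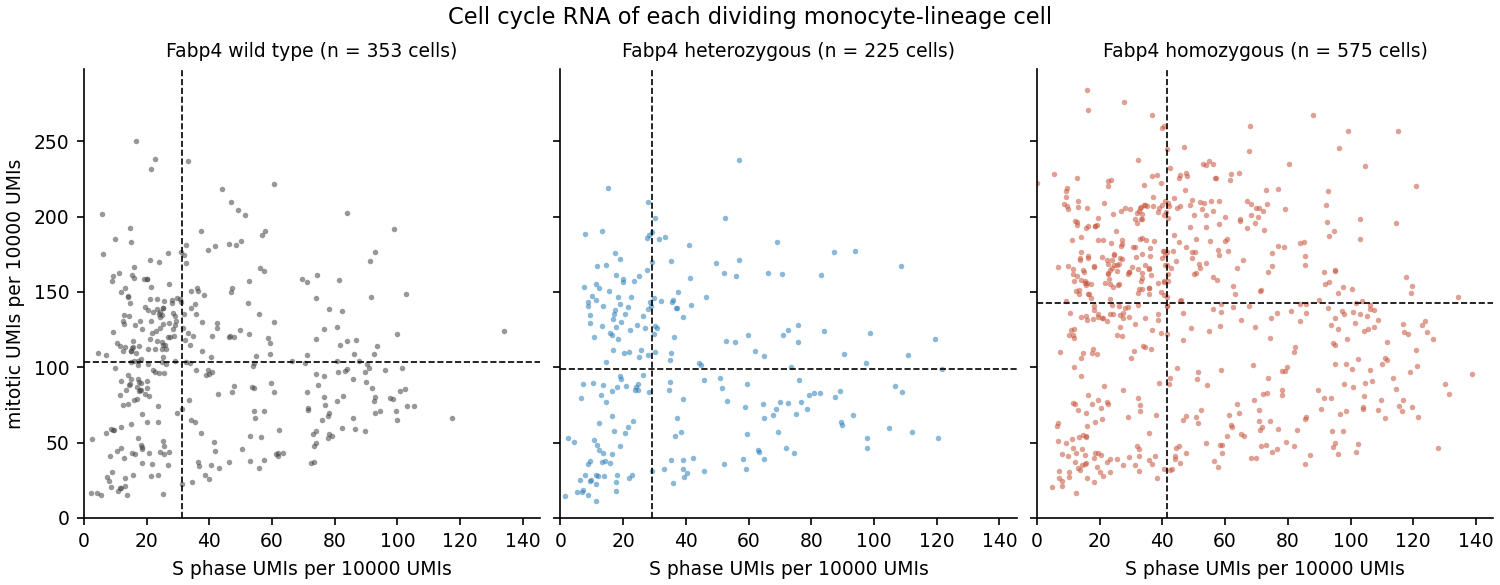
Each point is a member cell: UMIs of S phase genes (horizontal axis) against UMIs of mitotic genes (vertical axis), both in each 10000 UMIs of the cell, with 1 panel per library and dashed lines at the medians. The homozygous medians, 41.4 and 143, lie above the wild-type medians of 31.4 and 104 and the heterozygous medians of 29.3 and 99.1.

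Genes of DNA synthesis were slightly higher in homozygous members. Of 58 S phase genes, 55 were higher and 3 lower than in wild-type members, with a median log2 ratio of 0.31, and none passed 2-fold. Over all 11094 genes with at least 50 UMIs in the 2 sums, 55.5% were higher, 4.15% were past 2-fold in either direction, and the median was 0.04. Pcna, the sliding clamp of DNA polymerase, stood at 229, 199 and 255 CPM. Atad2, a chromatin ATPase of S phase, stood at 217, 223 and 256 CPM. Both were highest in homozygous members by a small margin. Ccne1, cyclin E1, which drives entry into S phase and was picked after its values were seen, had the list's highest ratio, with 21.1, 21.4 and 36.1 CPM and a log2 ratio of 0.78 (0.51 to 1.04). In heterozygous members 11 S phase genes were higher and 47 lower than in wild type, with a median of -0.13; of all 10298 genes in that comparison 49.9% were higher and 50.1% lower, 3.29% past 2-fold in either direction, with a median of 0.00. That heterozygous direction did not hold under every setting: 32 S phase genes were higher with at least 4 monocyte genes required, and 41 when cells were thinned to 3000 UMIs.

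Mitotic genes showed the same pattern at a larger size. Of 92 genes, 90 were higher in homozygous members, none past 2-fold, with a median log2 ratio of 0.39 and a summed level of 10356, 9928 and 13692 CPM. All 20 kinase and checkpoint genes were higher, with a median of 0.41. Cdca8, borealin of the chromosomal passenger complex, stood at 181, 177 and 232 CPM, and Incenp, another subunit of that complex, at 160.2, 155 and 187 CPM. Bub3, a spindle checkpoint protein, differed least among the leading genes, with 173, 157 and 189 CPM. All 16 cyclin and degradation genes were higher too, but with a median of 0.16, and in thinned cells 8 were. Cks2, a small partner of Cdk1, was close to level at 549, 583 and 570.0 CPM, while Ccna2, cyclin A2, stood at 64.9, 57.6 and 103 CPM and a log2 ratio of 0.67 (0.52 to 0.82). Fbxo5, the inhibitor Emi1 of the anaphase-promoting complex, had the highest ratio of the 92, with 48.8, 49.4 and 92 CPM and 0.92 (0.75 to 1.09); Ccna2 and Fbxo5 were picked after their values were seen. For Fbxo5 the wild-type and heterozygous levels were alike and the homozygous level stood apart.

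Spindle and chromosome genes followed. Of 29 kinesin and spindle genes 28 were higher in homozygous members (median 0.46; 20 were in thinned cells), and of 27 centromere, condensin and cohesin genes 26 were (median 0.44). The beta-tubulin gene Tubb5 stood at 840.5, 708 and 1301 CPM, with a homozygous log2 ratio of 0.63 (0.59 to 0.67). Another beta-tubulin gene, Tubb4b, was the exception, at 585, 449.6 and 524 CPM and -0.16 (-0.22 to -0.10). Smc4, the core condensin subunit, stood at 461, 439.9 and 540.0 CPM, and Cenpa, the histone variant of centromeres, at 227, 191 and 285 CPM. In heterozygous members 41 of the 92 mitotic genes were higher and 51 lower than in wild type, with a median of -0.02. The summed mitotic level was 1.27-fold the wild-type level in dividing cells with at most 1 monocyte gene, against 1.32-fold in members. Within ranges of primary granule RNA (under 0.1%, to 0.5%, to 1%, and above) the homozygous mitotic level was 1.15-, 1.37-, 1.10- and 1.19-fold the wild-type level. In non-dividing monocyte-lineage cells, picked for having no UMI of the 6 cycle genes, it was 2032, 1845 and 2036 CPM.

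The promoters of mitotic genes often hold the CHR element (TTTGAA) and CCAAT boxes, short sequences through which such genes are switched on late in the cycle. Of the 92 mitotic genes, 78 matched the RefSeq promoter table (GRCm38.p6) by symbol, with 86 promoters. In the 250 bases before the start, on either strand, 31.4% of them held TTTGAA and 67.4% held CCAAT. Among all 32851 promoters of the table these shares were 16.0% and 33.8%. Among the 52 promoters of matched S phase genes they were 11.5% and 59.6%. The windows of 2 genes are shown because they had the most UMIs in members among mitotic genes whose window holds TTTGAA. They run 5′ to 3′ along the gene, and capitals mark TTTGAA and CCAAT, or their reverse complements TTCAAA and ATTGG. Tubb4b lies at chr2:25224703-25224952 on the minus strand, with TTTGAA starting 198 bases before the start and 5 CCAAT boxes. Kif11, the kinesin that separates the spindle poles, lies at chr19:37376132-37376381 on the plus strand, with its match starting 19 bases before the start and 1 CCAAT box.

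Tubb4b: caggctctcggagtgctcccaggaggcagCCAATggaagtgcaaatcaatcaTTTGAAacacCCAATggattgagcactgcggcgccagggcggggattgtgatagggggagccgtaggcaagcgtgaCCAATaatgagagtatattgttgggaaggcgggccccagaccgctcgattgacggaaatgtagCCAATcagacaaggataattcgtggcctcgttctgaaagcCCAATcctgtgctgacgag
Kif11: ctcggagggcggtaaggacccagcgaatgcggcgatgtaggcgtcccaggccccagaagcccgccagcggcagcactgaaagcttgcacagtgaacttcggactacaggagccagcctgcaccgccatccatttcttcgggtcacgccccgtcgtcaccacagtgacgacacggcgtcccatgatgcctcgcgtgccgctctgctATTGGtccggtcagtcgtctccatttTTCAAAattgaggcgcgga

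Tubb4b was the spindle gene that was lower in homozygous members, and Kif11 stood at 179, 179.7 and 225 CPM, so both windows hold the motif while the genes had ratios of opposite sign. A match describes letters in the window and is no evidence of binding.

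The brakes and early drivers of the cycle showed no common direction past 2-fold. Of 21 CDK inhibitors, D cyclins and retinoblastoma and E2F genes, 16 were higher and 5 lower in homozygous members, with a median of 0.24. Cdk6, a kinase of early G1, stood at 1317, 1242 and 1130.2 CPM, and Ccnd3, cyclin D3, at 193, 233 and 258 CPM. Cdkn2c, the inhibitor p18 of Cdk4 and Cdk6, had the lowest ratio, at 142, 153 and 75.8 CPM and -0.90 (-1.03 to -0.77). It was lower in homozygous non-dividing monocyte-lineage cells as well (153, 132 and 37.5 CPM) and in the other dividing cells (153, 174 and 48.9 CPM). Among members with Xist and no Y-linked RNA it stood at 143, 148 and 74.6 CPM. The antiproliferative gene Btg1 stood at 373, 425 and 441 CPM in members and at 812, 974 and 951 CPM in non-dividing cells, lower in members in every library. Chromatin and histone genes were mostly higher in homozygous members, 16 of 21 with a median of 0.23. Among them H1f5, a linker histone picked after its values were seen, had the highest ratio, at 386, 419.7 and 657 CPM.

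Within each library, members were set against 719, 580 and 504 monocyte-lineage cells with no UMI of the 6 cycle genes; the rule itself separates these sets, so the ratios are a description. Of 9469 genes, 9.35% were past 2-fold in the same direction in all 3 libraries (6.47% higher and 2.87% lower in members), and at any size 44.9% were higher and 30.2% lower in all 3. The 10 genes ranked highest in members were Esco2, Tpx2, Pclaf, Ccnb1, Hmmr, Shcbp1, Cenpf, Nek2, Depdc1a and Cenpe, which act in chromosome cohesion, the spindle, DNA replication and mitosis or are known as proliferation genes. The 10 ranked lowest were Clec4a3, Klra2, Wfdc17, Sirpb1c, Ifi204, Slfn5, Clec4a1, Oasl2, Sirpb1b and Lpl. These are largely surface receptors of mature myeloid cells and interferon-inducible genes. Tpx2, which activates the kinase Aurora A on spindles, stood at 120.4, 123 and 184 CPM in members and 3.97, 3.58 and 4.07 CPM in non-dividing cells. Clec4a3, a C-type lectin of monocytes, stood at 6.40, 11.3 and 13.8 CPM against 52, 96.2 and 102 CPM.

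Mature monocyte RNA was lower in members than in non-dividing cells. Of 24 monocyte identity genes measured, 22 were lower in all 3 libraries, 11 of them past 2-fold, with a median log2 ratio of -1.06 against 0.10 over all genes. Lyz2 stood at 1304, 1742 and 2094 CPM in members and 5136, 7661 and 8439 CPM in non-dividing cells, log2 ratios of -1.98, -2.14 and -2.01. Ctss, the lysosomal protease cathepsin S, stood at 146, 135 and 256 CPM against 438, 518 and 678 CPM. Plac8 was the exception, at 2843, 2144 and 3824 CPM against 2699, 2018 and 3488 CPM. Ly6c2, the surface protein that marks classical monocytes, differed little, at 1105, 1254 and 1902 CPM against 1249.5, 1233 and 2391 CPM. Primary granule RNA ran the opposite way, with all 9 measured genes higher in members, 6 past 2-fold and a median of 2.004. Ribosome biogenesis genes were also higher in members (24 of 30, median 0.60), as were nuclear respiratory chain genes (28 of 35, median 0.32).

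Levels were also read over ranges of cycle UMIs, as a description, since the rule reads this measure. Depth rose over the same ranges in every library. Median cells held 8762, 7379 and 8539.5 UMIs with no cycle UMI and 31118, 26762 and 26859 UMIs with 60 or more. Cycle RNA and depth therefore cannot be told apart here. In wild-type monocyte-lineage cells with 0, 1 to 4, 5 to 14, 15 to 29, 30 to 59 and 60 or more cycle UMIs, Lyz2 stood at 5136, 4082, 2158, 1136, 1093 and 1063 CPM. In the homozygous library the same ranges gave 8439, 6476, 2639, 2017, 2001 and 1941 CPM. In the heterozygous library they gave 7661, 5945, 2967, 1168, 1124 and 1756 CPM. Lyz2 was therefore lower from range to range up to 15 to 29 cycle UMIs in every library, and beyond that nearly level in the wild-type and homozygous libraries and higher in the last heterozygous range. Irf8 followed no such order, with 245 CPM in wild-type cells with no cycle UMI, 174 CPM in those with 5 to 14 and 221 CPM in those with 60 or more. In the heterozygous library it stood at 260.1, 189 and 235 CPM in these 3 ranges, and in the homozygous library it was highest in the last, at 319.98, 329 and 421 CPM. S phase RNA was highest in the range of 15 to 29 cycle UMIs (6009, 4901 and 6973 CPM), and mitotic RNA in the range of 60 or more (13640.5, 14007 and 17499.9 CPM).

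Members were next set against 317, 310 and 434 dividing cells with at most 1 of the 7 monocyte genes. Of 9402 genes 4.34% were past 2-fold in all 3 libraries (3.58% higher and 0.755% lower in members), at any size 30.8% were higher and 32.2% lower in all 3, and the rule again separates the sets. The 10 genes ranked highest in members were S100a4, Ifi27l2a, Plekhm3, S100a10, Ifi209, Ms4a4c, Ctss, Ccl2, Pid1 and Kctd14. S100a4, a calcium-binding protein of motile cells, stood at 231, 402 and 462 CPM in members and 15.7, 20.4 and 21.2 CPM in the other dividing cells. S100a10, the partner of annexin A2, stood at 526, 509 and 763 CPM against 50.5, 30.9 and 48.6 CPM. The 10 ranked lowest were Syne1, Tshr, Pip5k1b, Slco4c1, Tinagl1, Prom1, Aff2, S100a8, S100a9 and Pde4d. S100a8, a subunit of the neutrophil protein calprotectin, stood at 3229.5, 6727 and 2354 CPM in members and 9331, 14763 and 11107 CPM in the other dividing cells. Of 24 monocyte identity genes 23 were higher in members, 16 past 2-fold, with a median of 2.55. Both sets needed at least 5 cycle UMIs, so similar levels of cycle genes follow from the choice of cells. No mitotic gene and no S phase gene was past 2-fold in all 3 libraries, with medians of -0.13 and -0.10. At any size 18 of 92 mitotic genes were higher and 38 lower in members in all 3 libraries. Of 58 S phase genes 3 were higher and 25 lower.

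**Figure D3:**
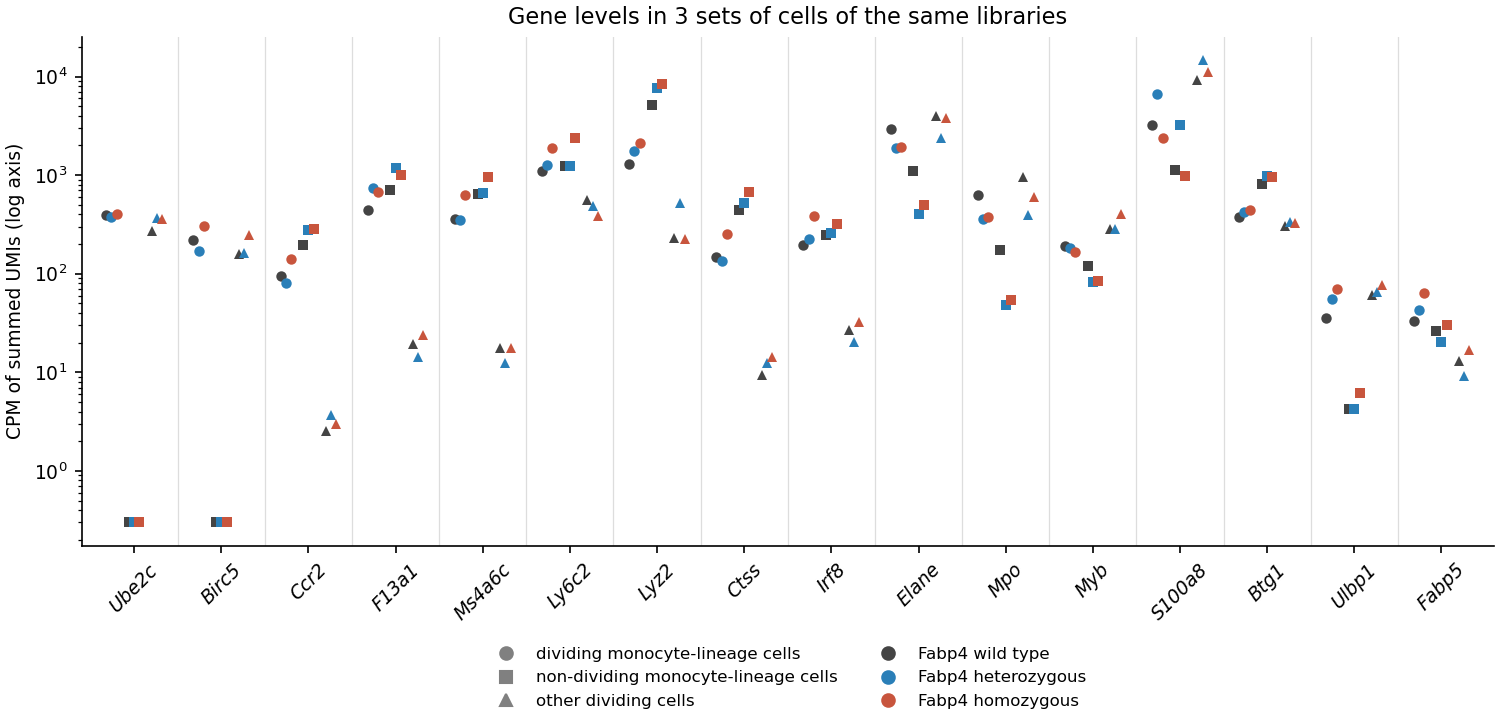
CPM (vertical axis, log scale) of 16 genes in members, non-dividing monocyte-lineage cells and other dividing cells of the 3 libraries, with 1 point per set and library; Ube2c and Birc5 have no UMI in non-dividing cells by the rule and are drawn at the bottom of the axis. By the rule itself, members share its cycle genes with the other dividing cells and its monocyte genes with the non-dividing cells. Lyz2 and Ctss, which the rule does not read, lie between the other sets.

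Between genotypes, monocyte identity RNA was higher in homozygous members. Of 25 genes, 21 were higher and 4 lower than in wild type, 5 past 2-fold higher (2.02% of all genes were), with a median log2 ratio of 0.48. Over all genes 55.5% were higher. The count of 21 fell to 17 with at least 4 monocyte genes, 17 without granule-rich cells and 16 in thinned cells. Under the other alternatives it was 20 to 23. Ly6c2 stood at 1105, 1254 and 1902 CPM, a homozygous log2 ratio of 0.78 (0.75 to 0.82). T-lineage cells, some of which express Ly6c2 themselves, carried 246, 542 and 469 CPM of it, also less in the wild type, and the part of free RNA in the members' difference was not tested. Lyz2 had a homozygous ratio of 0.68 (0.65 to 0.72) and Plac8 of 0.43 (0.40 to 0.45). Lgals3, galectin-3, stood at 781, 734 and 1092 CPM and 0.48 (0.44 to 0.53). In heterozygous members 13 of 24 genes were higher and 11 lower, with a median of 0.04. The 5 genes past 2-fold, which fall outside the naming rule, were Fcgr1, Ifi27l2a, Ms4a4c, Ms4a6b and Gpr141. Ifi27l2a is itself interferon-inducible and stood at 163, 208 and 539 CPM. Ms4a4c stood at 56.2, 87 and 156 CPM and Gpr141, an orphan receptor, at 176, 282 and 369 CPM. Of 12 S100 and annexin genes 9 were higher in homozygous members, and S100a4 was past 2-fold at 231, 402 and 462 CPM, while S100a6, a related protein, was highest in heterozygous members at 324, 696 and 368 CPM.

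A median member had 0.274%, 0.189% and 0.108% of its UMIs from the 4 primary granule genes, so the ratios were taken within granule ranges. The Ly6c2 level in homozygous members was 2.11-fold the wild-type level in cells with under 0.1% primary granule RNA and 1.86-fold in those with 0.1% to 0.5%. It was 0.870-fold in cells with 0.5% to 1% and 1.23-fold in those with 1% or more. The higher Ly6c2 level was thus found in the granule-poor ranges, which hold most members, and not in the range of 0.5% to 1%. Lyz2 in homozygous members was 1.24-fold the wild-type level in cells with under 0.1%, 0.954-fold with 0.1% to 0.5%, 0.936-fold with 0.5% to 1% and 2.20-fold with 1% or more. Its higher summed level was thus absent in the middle ranges, and how far it follows from the larger share of granule-poor homozygous members was not tested. Irf8 was 1.65-, 1.92-, 1.23- and 5.87-fold the wild-type level in the same ranges, higher in each.

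Lineage transcription factors differed little as a list. Of 22 measured, 13 were higher and 9 lower in homozygous members, 1 past 2-fold, with a median of 0.16. These counts are close to the shares over all genes, 55.5% higher and 4.15% past 2-fold in either direction. Irf8 stood at 195, 226 and 383 CPM, with a homozygous log2 ratio of 0.98 (0.89 to 1.06), just short of 2-fold. Cebpe, the factor of late neutrophil precursors, ran the opposite way at 117, 113 and 60.6 CPM and -0.95 (-1.10 to -0.81). Gfi1 stood at 28.4, 33.5 and 25.5 CPM, and Spi1, the factor PU.1 shared by all myeloid cells, at 409, 392 and 441 CPM. Cebpb, a factor of mature myeloid cells, stood at 499, 503 and 760.2 CPM. Gata2, a stem and mast cell factor, was the gene past 2-fold lower, with 47, 19 and 33 UMIs. In heterozygous members the genes past 2-fold higher were Egr1 (60.3, 131 and 54.3 CPM) and Nr4a1 (24.2, 60.7 and 29.4 CPM), both immediate early genes. Klf2, a regulator of quiescence in leukocytes, stood at 1309.7, 2378 and 1524 CPM and was highest there too.

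Granule genes were lower in homozygous members. Of 10 primary granule genes 9 were lower, 2 past 2-fold (2.13% of all genes were), with a median of -0.60. Elane stood at 2904, 1864 and 1914 CPM, with log2 ratios of -0.60 (-0.63 to -0.57) for homozygous and -0.64 (-0.68 to -0.60) for heterozygous members. Mpo, myeloperoxidase, stood at 621, 358 and 374 CPM, and Prtn3, proteinase 3, at 2428, 1788 and 1776 CPM. Ctsg, cathepsin G, did not follow, at 453, 397 and 454 CPM. The 2 past 2-fold were Cst7 (12.8, 4.34 and 3.92 CPM) and Nkg7 (144, 115 and 45.6 CPM). The heterozygous library had all 10 genes lower, with a median of -0.45, but this direction did not hold without the granule-rich cells, where 7 were higher, or in thinned cells, where 6 were.

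Secondary granule and other neutrophil genes split the knockout libraries. All 14 were lower in homozygous members, 1 past 2-fold, with a median of -0.73, while in thinned cells 4 were higher. Among all genes 44.5% were lower and 2.13% past 2-fold lower. In heterozygous members 12 of 14 were higher, 6 past 2-fold, with a median of 0.86. Among all genes 49.9% were higher there and 1.83% past 2-fold higher. S100a8 stood at 3229.5, 6727 and 2354 CPM and S100a9, its partner, at 2975, 6674 and 1770.5 CPM, highest in heterozygous and lowest in homozygous members; in thinned cells the homozygous S100a8 ratio was 0.26 in place of -0.46. Chil3, a chitinase-like protein of myeloid cells, was lower in both knockout libraries at 2613, 1408 and 1411 CPM. Hp, haptoglobin, was the other gene lower in heterozygous members, at 1187, 1053 and 782 CPM. S100a8 was highest in the heterozygous library in non-dividing cells as well (1126, 3197 and 985 CPM) and stood at 9331, 14763 and 11107 CPM in the other dividing cells. The neutrophil markers were 2.96-fold the wild-type level in heterozygous members, 3.55-fold in non-dividing cells and 3.01-fold in the other dividing cells, so all 3 sets of that library carried more of them. The part of neutrophil RNA in the members' values was not tested.

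Interferon-response genes gave the highest median log2 ratio of the 27 pathway lists between homozygous and wild-type members. All 50 genes measured, of 55 in the list, were higher in homozygous members, 36 of them past 2-fold, with a median log2 ratio of 1.46 against 0.04 over all genes; Ifit3, with no wild-type UMI, lies above the median whether or not it is set at its bound. Among all genes measured, 55.5% were higher and 2.02% past 2-fold higher in homozygous members. The summed level of the list was 915, 1062 and 2172 CPM, which is 2.37-fold in homozygous and 1.16-fold in heterozygous members. A median member held 7.36, 9.54 and 19.7 UMIs of these genes in each 10000, so the difference was not that of a few cells. In heterozygous members 28 of 40 genes were higher, 2 past 2-fold higher and 1 past 2-fold lower, with a median of 0.17. Among all genes 49.9% were higher there and 1.83% past 2-fold higher.

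The pathway was followed from receptor to target. The receptor chains differed little, with Ifnar1 at 44.1, 53.7 and 59 CPM and Ifnar2 at 290.5, 303 and 320.4 CPM. Stat2, which carries the receptor's signal to the nucleus, stood at 25.2, 24.1 and 30.4 CPM, with a homozygous log2 ratio of 0.27 (0.01 to 0.53). Irf9, its DNA-binding partner, stood at 27.3, 31.6 and 55.2 CPM, and Irf7, which amplifies interferon production, at 16.9, 22.4 and 66.2 CPM with 1.97 (1.70 to 2.25). Of these 3 factors Irf7 had the highest ratio and Stat2 the lowest. Among target genes, Bst2 (tetherin, which holds budding virus at the cell surface) stood at 41.2, 38.1 and 128 CPM and 1.63 (1.46 to 1.81). Mndal, a DNA sensor of the Ifi200 family, stood at 57.2, 62.9 and 161 CPM and 1.49 (1.34 to 1.64). Other members of that family ranged up to Ifi211, at 6.65, 11.3 and 47.5 CPM and 2.83 (2.42 to 3.27). Trim30a, an antiviral regulator, stood at 47.6, 44.6 and 119 CPM. All these targets were highest in homozygous members, and wild-type and heterozygous levels lay closer together. Isg15, a ubiquitin-like protein attached to targets during the response, stood at 6.40, 11.8 and 37.7 CPM and 2.56 (2.13 to 3.01). Oasl2, a 2′-5′ oligoadenylate synthetase-like protein, stood at 1.66, 4.58 and 15.9 CPM, with 13, 19 and 183 UMIs. Ifit3, which acts in complexes that recognise foreign RNA, had 0, 5 and 88 UMIs, at least 19.97-fold higher in homozygous than wild-type members when the wild type is set at 3 counts. Sp100, a nuclear body protein, had a ratio of 0.60 (0.50 to 0.69) and Samhd1, a nucleotide hydrolase, of 0.40 (0.27 to 0.54). The receptor, Stat2, Irf and Isg15 genes fall outside the naming rule and were picked for their role in the pathway.

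**Figure D4:**
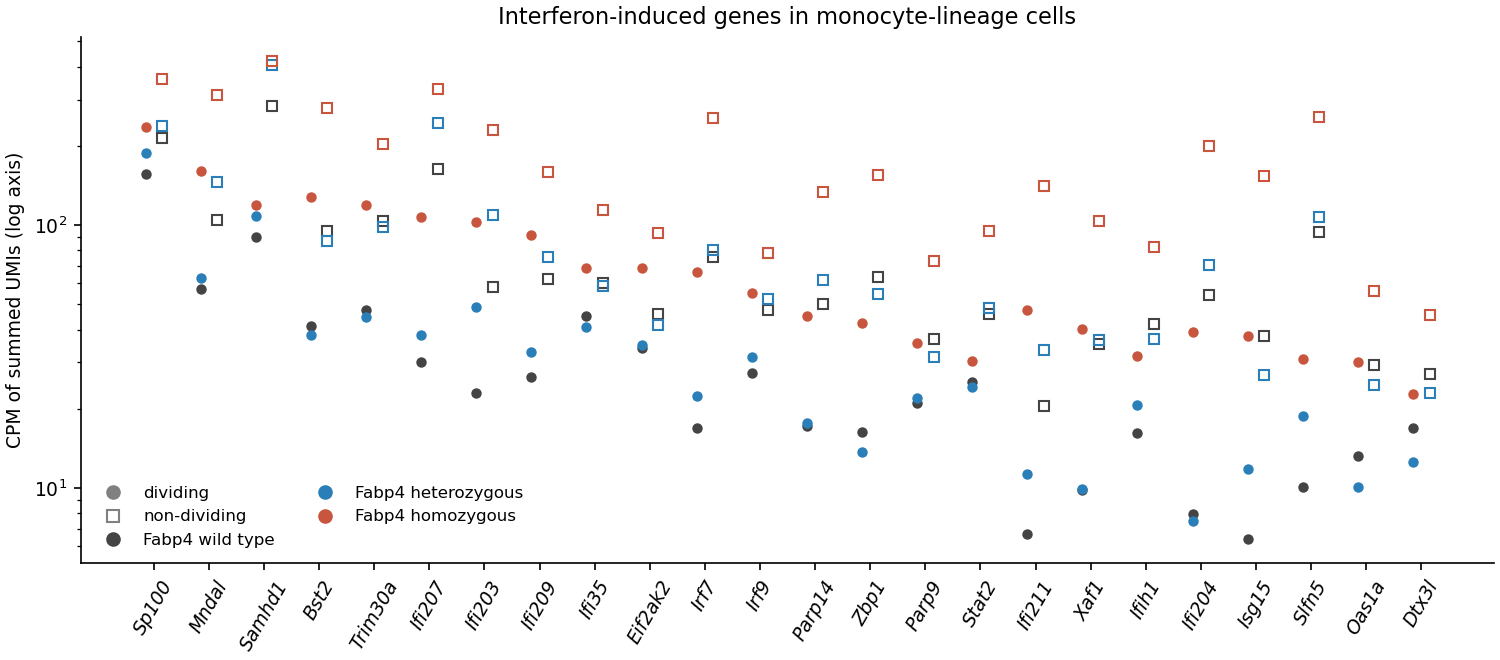
CPM (vertical axis, log scale) of 24 interferon-response genes among those with the most UMIs in members; filled circles are members and open squares non-dividing monocyte-lineage cells, coloured by library. Homozygous members lie above wild-type members for all 24 genes, and non-dividing cells lie above members of the same library for most of them.

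Some of these promoters carry the interferon-stimulated response element, the sequence bound by complexes that hold Stat2 and Irf9. Of the 55 list genes, 44 matched the RefSeq table, with 55 promoters. Its core was searched as GAAA, any 2 bases and GAAA again. It occurred on either strand in the 250 bases before the start in 50.9% of them, and in 2.98% of all 32851 promoters and 2.33% of the mitotic ones. The 2 windows shown are those of the genes with the most UMIs in members among list genes whose window holds the core, with the core in capitals. Mndal lies at chr1:173879959-173880208 on the minus strand, and the core, here as its reverse complement, starts 54 bases before the start. Bst2 lies at chr8:71537473-71537722 on the minus strand, with overlapping matches that start 130 and 124 bases before the start.

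Mndal: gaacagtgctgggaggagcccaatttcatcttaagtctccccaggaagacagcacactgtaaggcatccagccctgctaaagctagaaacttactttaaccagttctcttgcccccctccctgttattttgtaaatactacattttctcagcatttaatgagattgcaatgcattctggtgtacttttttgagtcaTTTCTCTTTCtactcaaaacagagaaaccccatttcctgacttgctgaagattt
Bst2: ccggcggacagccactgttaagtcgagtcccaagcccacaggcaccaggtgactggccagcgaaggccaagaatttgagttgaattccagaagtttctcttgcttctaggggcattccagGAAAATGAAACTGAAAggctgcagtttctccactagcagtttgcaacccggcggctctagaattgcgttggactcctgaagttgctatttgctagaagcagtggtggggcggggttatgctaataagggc

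Both genes with a printed element were among the 36 past 2-fold in homozygous members. The motif counts describe the windows and do not show which promoters were bound in these cells.

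The homozygous interferon excess was measured in each set of cells. In non-dividing monocyte-lineage cells the summed level was 2294, 2710.4 and 5894 CPM, 2.57-fold in the homozygous library. In dividing cells with at most 1 monocyte gene it was 538, 629.7 and 764 CPM, 1.42-fold. By cycle UMIs (0, 1 to 4, 5 to 14, 15 to 29, 30 to 59, 60 or more) the homozygous level was 2.57-, 2.41-, 2.56-, 3.10-, 2.30- and 2.05-fold the wild-type level. By primary granule RNA (under 0.1%, to 0.5%, to 1%, and above) it was 2.27-, 2.07-, 1.44- and 2.03-fold. Members with Xist and no Y-linked RNA (344, 52 and 534 cells) gave 916.6, 991 and 2170.2 CPM. They are nearly all wild-type and homozygous members, so these 2 values could hardly differ from those of all members. The part of sex was not tested. Heterozygous members with Y-linked RNA alone stood at 1077 CPM. Dividing members carried less of this RNA than non-dividing cells in each library, with 43 of 44 genes lower in all 3 libraries and 26 past 2-fold. The spread of these folds between animals is unknown, since each genotype is 1 library.

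Antigen presentation genes of MHC class I, many of them interferon-inducible, were higher to a smaller extent. In homozygous members 15 of 17 were higher, 1 past 2-fold, with a median of 0.43, where 55.5% of all genes were higher and 2.02% past 2-fold higher. H2-D1 stood at 349, 367 and 485 CPM and B2m, the light chain, at 303, 365 and 412 CPM, while H2-K1 stood at 248, 263 and 233 CPM. H2-Q7 was the gene past 2-fold (2.18, 6.51 and 7.49 CPM); H2 genes are near-identical copies, so reads may be split between them. In heterozygous members 5 of 16 were higher and 11 lower, where 49.9% of all genes were higher.

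**Figure D5:**
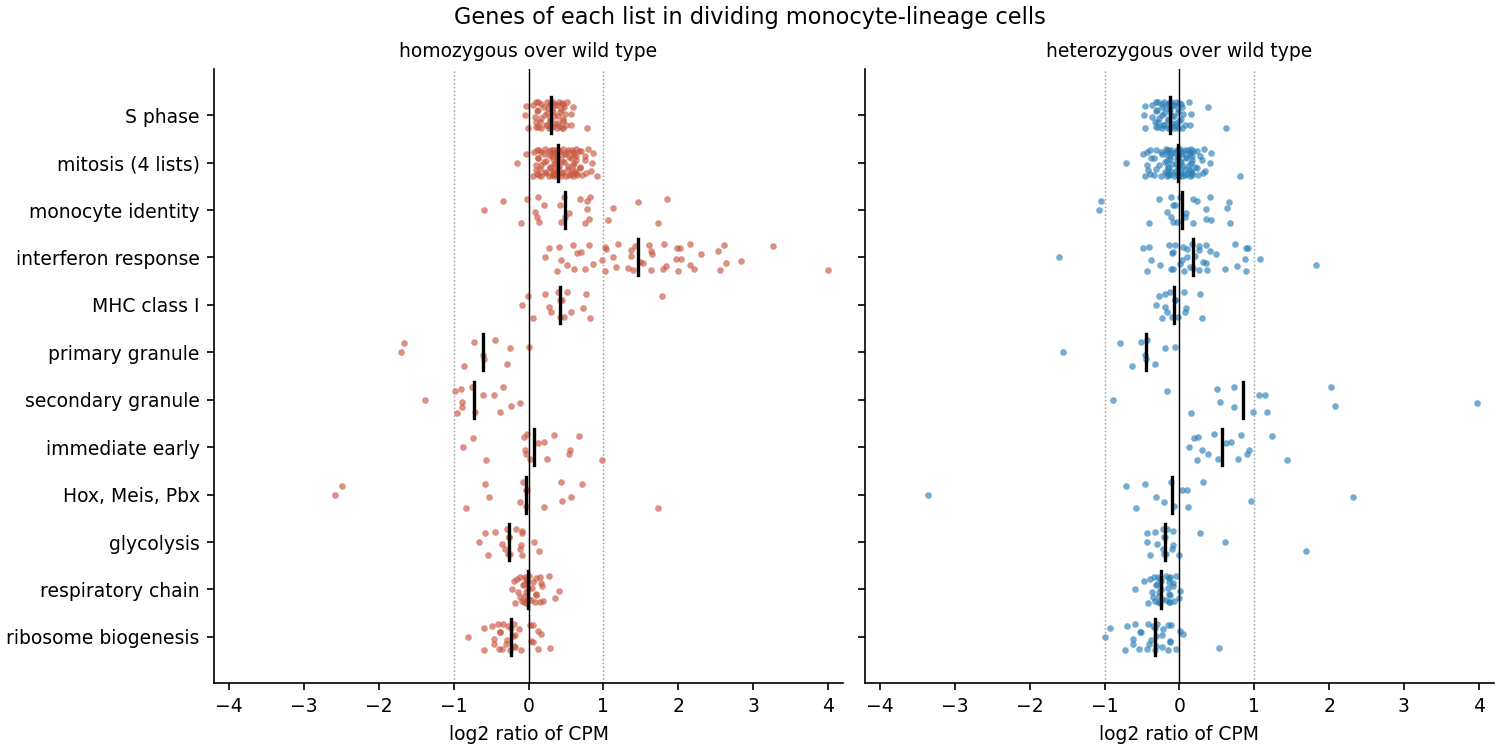
Log2 ratio of CPM in members against wild-type members (horizontal axis) for genes with at least 50 UMIs, in 12 rows of lists, with the heterozygous and the homozygous comparison in separate panels; each point is a gene, black bars are list medians, dotted lines mark 2-fold, and Ifit3, with no wild-type UMI, is drawn at 4. The interferon list has a median of 1.46 in the homozygous panel and 0.17 in the heterozygous one, and the mitotic row sits just above 0 in the homozygous panel.

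Receptors for growth factors and for migration showed small differences. Of 15 growth factor and cytokine receptor genes, 12 were higher in homozygous members, none past 2-fold, with a median of 0.29. Among all genes 55.5% were higher in that comparison and 49.9% in the heterozygous one. Csf2ra, the alpha chain of the GM-CSF receptor, stood at 226, 214 and 262 CPM, and Csf3r, the G-CSF receptor, at 39, 59.3 and 50.3 CPM. Il6st, the shared signalling chain gp130, stood at 36.7, 55.7 and 58 CPM. Kit, the stem cell factor receptor, stood at 26.5, 20.5 and 17.2 CPM, and Flt3 at 10.2, 11.6 and 10.2 CPM. Of 14 adhesion and chemokine receptor genes, 10 were higher in homozygous members (median 0.20), and of 13 in heterozygous members 12 were (median 0.45). Selplg, the selectin ligand PSGL-1, stood at 106, 133 and 201 CPM, and Itga4, the alpha4 integrin chain, at 100.2, 147 and 157 CPM. Cd44, the hyaluronan receptor, was highest in heterozygous members at 804, 1096 and 875 CPM. Cxcr4, which retains cells in the marrow, stood at 75.6, 105 and 121 CPM.

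Immediate early genes, which respond within minutes to growth factors and also to handling of cells, set the heterozygous library apart. All 16 were higher in heterozygous members than in wild type, 2 past 2-fold, with a median of 0.57. Over all genes 49.9% were higher and 1.83% past 2-fold higher. In homozygous members 9 were higher and 7 lower, with a median of 0.08, where 55.5% of all genes were higher. Thinned cells had 11 higher in heterozygous and 6 in homozygous members. Fos stood at 604, 1634 and 961 CPM, Fosb at 334, 788 and 367 CPM and Jun at 1096, 1763 and 1305 CPM. The summed level was 1.65-fold the wild-type level in heterozygous members, 1.76-fold in non-dividing cells and 1.72-fold in the other dividing cells. The heterozygous library therefore showed it in all 3 sets, and whether handling differed between libraries was not tested. Atf3, a stress-inducible factor, was higher in both knockout libraries, at 154, 272 and 302 CPM.

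The HoxA and Meis group, genes of immature and leukaemic myeloid cells, contained single genes that differed strongly. Of 16 measured, 6 were higher and 10 lower in homozygous members, 1 past 2-fold higher and 2 past 2-fold lower, with a median of -0.03. Among all genes 44.5% were lower, 2.02% were past 2-fold higher and 2.13% past 2-fold lower. Pbx3, the homeobox partner of HoxA9 and Meis1, stood at 958, 981 and 159.6 CPM, with 7489, 4072 and 1832 UMIs and a homozygous log2 ratio of -2.59 (-2.66 to -2.51). Wild-type and heterozygous members differed in Pbx3 by a log2 ratio of 0.03 (-0.02 to 0.09), and the homozygous members stood far below both. Non-dividing cells (1041, 957 and 192 CPM) and the other dividing cells (1344, 1240.3 and 161 CPM) showed the same order for the homozygous library. Hoxa9 stood at 183, 111 and 248 CPM, highest in homozygous and lowest in heterozygous members. Meis1 stood at 912, 663 and 608 CPM and Mecom, the Evi1 gene, at 633, 601 and 437 CPM, while Eya1 was higher in both knockout libraries at 716, 892 and 830.5 CPM. Hoxa11 was the gene past 2-fold higher in homozygous members, with 9, 2 and 44 UMIs. Mecom and Meis1 are among the stem-cell markers, and the whole stem list summed to 1579, 1288 and 1066 CPM, with Cd34 at 0 by the rule. Among members with Xist and no Y-linked RNA, Pbx3 stood at 950.7, 1088 and 132.5 CPM. Homozygous members with both kinds of RNA had 431 CPM (36 cells) and those with Y-linked RNA alone 1667 CPM (3 cells), against 132.5 CPM in the 534 cells with Xist alone. The labels give no strain, so genotype and strain cannot be told apart for Pbx3. In thinned cells the homozygous log2 ratio of Pbx3 was -1.77.

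Fatty acid-binding and uptake genes, the family of the targeted gene, were mostly near the floor. Of 20 genes, 10 reached 50 UMIs in the homozygous comparison, 3 higher and 7 lower, 1 past 2-fold lower, with a median of -0.09. Among all genes 44.5% were lower and 2.13% past 2-fold lower. Fabp5, the epidermal fatty acid-binding protein, was the only Fabp gene with more than a few UMIs, at 32.9, 42.4 and 64 CPM, and 0.96 (0.75 to 1.17) in homozygous members. It was higher in members than in non-dividing cells (26.3, 20.4 and 29.8 CPM) and than in the other dividing cells (13.1, 9.16 and 16.9 CPM) of the same library. Among homozygous monocyte-lineage cells it was highest in those with 15 to 29 cycle UMIs, where the libraries stood at 38.4, 38.9 and 171 CPM. Members with 5 to 14 cycle UMIs had 33.1, 48.9 and 55.7 CPM, and those with 30 to 59 had 32.8, 46.9 and 73.7 CPM. With 60 or more the level was nearly the same in all libraries, at 28.7, 29.7 and 30.6 CPM. The homozygous ratio turned to -0.51 in cells thinned to 3000 UMIs, where few molecules are left. Fabp1, Fabp2 and Fabp6 had no UMI in any library, Fabp3 had 2, 0 and 4 UMIs and Fabp7 had 9, 3 and 0 UMIs. Slc27a1, a fatty acid transporter, was the gene past 2-fold lower in homozygous members, at 4.86, 3.13 and 1.92 CPM. Plin2, the coat protein of lipid droplets, stood at 134, 104 and 92.6 CPM, lowest in homozygous members. Lpl, lipoprotein lipase, stood at 4.61, 4.10 and 2.53 CPM in members and 25.6, 28.2 and 22.2 CPM in non-dividing cells. Pparg, the nuclear receptor that controls Fabp4 in other cells, stood at 3.33, 3.61 and 3.66 CPM, and Ppard at 54.3, 66.3 and 51.6 CPM.

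Lipid and energy metabolism differed by less than 2-fold with few exceptions. Lower at any size were 44.5% of all genes in homozygous and 50.1% in heterozygous members. Of 21 fatty acid oxidation genes 9 were higher and 12 lower in homozygous members (median -0.11), and of 24 lipid synthesis genes 8 were higher and 16 lower (median -0.12). Cpt1a, the entry enzyme of mitochondrial oxidation, stood at 47.2, 43.6 and 30.7 CPM. Etfb, a subunit of the electron transfer flavoprotein, stood at 352, 275 and 243 CPM, and Acly, ATP citrate lyase, at 84.8, 64.8 and 52.7 CPM. These 3 were lowest in homozygous members, and Cpt1a was picked for its role. Sqle, squalene epoxidase, was past 2-fold lower with 37, 11 and 23 UMIs. Glycolysis genes were mostly lower in both knockout libraries, 17 of 19 in homozygous (median -0.26) and 16 of 19 in heterozygous members (median -0.19), with Gapdh at 1538, 1327 and 1418 CPM and Pgam1 at 463, 368 and 381 CPM. Nuclear respiratory chain genes were split in homozygous members, 16 higher and 19 lower (median -0.01). Without granule-rich cells 25 were higher there, and in thinned cells 8. They were lower in 34 of 35 cases in heterozygous members (median -0.24), where 10 were higher in thinned cells. Cox4i1 stood at 599, 528 and 591 CPM. Ribosome biogenesis genes were lower in 24 of 32 cases in homozygous (median -0.24) and 29 of 32 in heterozygous members (median -0.33). Npm1, nucleophosmin, stood at 836, 651 and 911 CPM, and Nme1, a nucleoside diphosphate kinase, at 206, 134 and 136 CPM.

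Ligands of the natural killer cell receptor NKG2D, which mark stressed or dividing cells, went in different directions. Ulbp1 stood at 35.2, 55.4 and 70.2 CPM in members and 4.26, 4.25 and 6.11 CPM in non-dividing cells, higher in members in every library and highest in homozygous members. Its homozygous log2 ratio was 0.996 (0.80 to 1.20), and 1.57 in thinned cells. Raet1e stood at 44, 16.9 and 22.5 CPM, highest in the wild type. Raet1d had 52, 1 and 2 UMIs, and in non-dividing cells 56, 0 and 0 UMIs, so nearly all of its UMIs came from the wild-type library, and genotype and strain, which is not given, cannot be told apart here. The Raet1 genes lie in a cluster of similar copies, so reads may be split between them. Survival genes of the BCL2 family were split, 7 higher and 8 lower in homozygous members. Mcl1 stood at 504, 621 and 557 CPM, and Bcl2 was lowest in homozygous members, at 117, 93.7 and 73.5 CPM. NADPH oxidase genes, which make the oxidative burst, were close to level, with 4 of 7 higher and a median of 0.02.

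The genes ranked first by the interval bound nearest to 0 were mostly scarce. For homozygous over wild-type members they were Xcl1, Ifit3, Xlr4a, Igfbp5, Ifi213, Capn11, Xlr3b, Oasl2, Ifi211 and Isg15, of which 5 are interferon-inducible. Of the 177 Xcl1 UMIs 92.7% came from 1 cell. Of the 78 Igfbp5 UMIs 91.0% did. Xlr4a and Xlr3b, X-linked lymphocyte-regulated genes, had 3, 5 and 146 UMIs and 2, 1 and 77 UMIs. The lowest were Vmn2r96, Raet1d, Col19a1, Cd38, Elavl2, Krt18, Pmp22, Aff3, Pbx3 and Pnp2. Aff3, a nuclear factor of the AF4 family, stood at 93.7, 58.3 and 13 CPM, and Col19a1, a collagen gene, at 119, 439 and 9.84 CPM, which was highest in heterozygous members. Cd38, an NAD-consuming surface enzyme, had 51, 4 and 2 UMIs.

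For heterozygous over wild-type members the highest were Slc15a2, Jchain, Cxcl12, Igfbp5, Retnlg, Fpr1, Ankrd33b, Stfa3, G0s2 and Stfa2. Slc15a2, a peptide transporter, had 0, 144 and 0 UMIs, at least 90.4-fold higher in heterozygous than wild-type members when the wild type is set at 3 counts. Retnlg, Fpr1, Stfa2 and Stfa3 are neutrophil genes, in the library whose sets all carried more neutrophil marker RNA. Cxcl12 and Igfbp5 are stromal genes, and 1 cell held 89.3% and 80.7% of their heterozygous UMIs. Among the lowest (1.47% of all genes were past 2-fold lower) were Vmn2r96, Elavl2, Mid1, Wdr66, Myo1e, Rhoj, Raet1d, Shtn1 and Cgnl1. Elavl2, a neuronal RNA-binding protein, had 62, 0 and 4 UMIs, and Myo1e, a myosin of membrane traffic, had 176, 7 and 90 UMIs. Vmn2r96, a vomeronasal receptor gene, had 100, 0 and 5 UMIs; that family has many near-identical copies and its values are uncertain. Mid1, a gene at the boundary of the region shared by the X and Y chromosomes, had 120, 2 and 116 UMIs.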

How the data were processed

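The authors deposited raw UMI counts per gene and cell for 3 filtered libraries, made with Cell Ranger 8.0.1 per the file headers. Cell Ranger, STAR and mm10 are named in the submitters' processing notes, and the annotation release is not given in the sources used here. No sample was left out. UMIs of the selected cells were summed per library and scaled to CPM (Python 3.11.15, scipy 1.17.1, scanpy 1.11.5). With 1 library per genotype there is no test: log2 ratios carry exact conditional 95% intervals and shares exact Clopper-Pearson ones. Genes with at least 50 UMIs in the compared sums were measured, and past 2-fold means at least a doubling or halving, within libraries in all 3. Doublets were kept, with Scrublet as an alternative. Named are the genes the rule reads, the 4 with most UMIs of each list, members of the Fabp, Hox-Meis, transcription factor, receptor and cycle lists, and 10 ranked genes per direction; genes given with values outside this rule were chosen for their role or after their values were seen. The cells and gene lists were chosen with earlier results of these data known. The computation of the intervals was tested on simulated counts with no spread between cells. That setting is unlike genes whose UMIs come mostly from 1 cell. Some genes that the naming rule covers are not reported here.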

Additional observations from a re-analysis of the deposited data

How the results depend on the processing

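No paired analysis was possible because each genotype is 1 library. The depth of the heterozygous members, the fewest in UMIs, limits genes near the floor of 3 counts, and intervals cover counting error only. The share of members kept the order homozygous, wild type, heterozygous under every alternative run. It was 8.53%, 4.05% and 16.7% (wild type, heterozygous, homozygous) with at least 3 cycle UMIs and 5.14%, 2.11% and 10.8% with at least 10. It was 8.82%, 4.16% and 16.3% with at least 2 monocyte genes and 4.35%, 2.04% and 10.8% with at least 4. Without Scrublet's top-scoring cells it was 5.60%, 2.42% and 11.8%, and in cells thinned to 3000 UMIs 2.08%, 1.02% and 6.65%. Stricter cell filters (1000 UMIs, mitochondrial share under 5%) gave 15.3% for the homozygous library, and a mitochondrial limit of 25% gave 5.29% for the wild type and 10.02% for the homozygous library. Without cells at 1% or more primary granule RNA it was 5.16% for the wild type and 12.0% for the homozygous library. No alternative relaxed the exclusions of the rule. The Cd34 exclusion alone removed 201, 101 and 89 cells (wild type, heterozygous, homozygous), beside 353, 225 and 575 members. It took relatively fewest from the homozygous library, and its part in the gap between libraries was not tested.

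Counts of genes past 2-fold depended on the UMIs required, since fewer or more genes are then measured. For homozygous over wild-type members, 224 genes were higher and 236 lower with 50 UMIs, 404 and 464 with 20, and 101 and 80.0 with 200. For heterozygous over wild-type members, 188 genes were higher and 151 lower with 50 UMIs, 400.0 and 360.0 with 20, and 64 and 28 with 200. With 200 UMIs, 313 genes were higher and 169 lower in members than in non-dividing cells, and 174 higher and 36 lower than in the other dividing cells. In thinned cells the counts were 125 and 45 for the homozygous comparison, 56 and 27 for the heterozygous one, 149 and 95 against non-dividing cells, and 135 and 126 against the other dividing cells. Of these, 25 and 9, 16 and 6, 119 and 71, and 93 and 26 were also past 2-fold without thinning, so most genotype calls in thinned cells are on other genes. The 71 genes lower than in the other dividing cells became 128 with the 25% mitochondrial limit, 17 with 2 monocyte genes, 192 with 4, 117 without Scrublet's cells, 127 without granule-rich cells and 177 with cells weighted alike. In cells with Xist and no Y-linked RNA, an alternative chosen after seeing the data, 542 genes were lower in heterozygous members, 294 higher and 175 lower than in non-dividing cells, and 159 higher and 35 lower than in the other dividing cells. Apart from the number of genes and cells measured, the cause was not tested.

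Jchain in heterozygous members turned from higher to lower: -1.89 with 4 monocyte genes, -1.91 without Scrublet's cells, -2.11 in cells with Xist alone and -1.97 without its top cell, the last 2 chosen after seeing the data. Prg2 in heterozygous members was -0.94 with 4 monocyte genes. In thinned cells the homozygous ratios of Ankrd33b (-0.071), Clec4a3 (-1.07) and Stfa2l1 (2.74) changed sign, as did the ratios of Pip5k1b (-0.93), S100a8 (-0.34) and Ngp (-0.071) against non-dividing cells. Median-of-ratios scaling shifted the log2 ratios by -0.05 for the homozygous and -0.0027 for the heterozygous comparison. Of the interferon-response genes, 48 to 50 were higher in homozygous members under the alternatives, and 18 to 28 in heterozygous members.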
